A study of Capra hircus with 6 samples.

Results

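The genes named ZNF followed by a number code for zinc finger proteins, most of them DNA-binding transcription factors, and 203 of them were examined here. A gene was included when its NCBI goat symbol consisted of ZNF and a number alone and when its level, averaged over all 6 libraries, was at least 2 FPKM (fragments counted per kilobase of transcript and scaled to the mapped fragments of a library). Members were thus selected on measured values, on the mean over both stages, so that passing the floor is not itself a result. Of 226 such genes in the mRNA table, 203 (89.8%) passed and 23 did not. Among all mRNA genes 12984 of 20225 (64.2%) passed the same floor.

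RNA was sequenced from the hypothalamus of 3 pubertal female Anhuai goats, aged 4.5 to 5 months and in the late follicular phase, and of 3 prepubertal females aged 2.5 to 3 months. Each library came from 1 goat, and the goats of both stages were anesthetized with pentobarbital sodium before the tissue was taken. The sources used here name no transgene and no treatment that set the groups apart, and stage and age cannot be told apart. The whole dissected hypothalamus was used, so that fewer cells of a type and less RNA per cell cannot be told apart either. The question was whether ZNF genes differed between the stages and whether they moved in a shared direction. The values hold no read counts, and the depth behind each of them is unknown.

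A C2H2 zinc finger is a short loop of protein held by a zinc ion between paired cysteines and histidines, and an array of such fingers reads a stretch of DNA or, in some members, RNA. Many ZNF proteins also carry a KRAB domain, which binds the co-repressor TRIM28 (KAP1). TRIM28 in turn brings in the histone methyltransferase SETDB1, heterochromatin protein 1 and the NuRD remodelling complex, and the bound gene or transposon is silenced. Other ZNF proteins act in RNA processing, ribosome assembly or transcriptional activation. Zinc finger repressors have been linked to the onset of puberty in the rat, where their overexpression in the arcuate nucleus delays it, and ZNF483 lies at a human locus associated with age at menarche.

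The libraries differed in markers of the hypothalamus and of other tissues. Hypothalamic markers such as SST and SIM1 were present in all libraries, and AVP was listed at 0 in all of them. Some others differed widely between goats. AGRP was at 22.7, 5.69 and 28.3 FPKM in pubertal libraries against 97.5, 176 and 22.3 FPKM in prepubertal ones. POMC was at 34.4, 85.1 and 429 FPKM against 47.4, 22.9 and 24.3 FPKM. GNRH1 was at 13.5, 14.1 and 16.0 FPKM against 6.92, 11.6 and 5.34 FPKM. Of 8 tested markers of this list 3 were higher and 5 lower. The 4 cerebral cortex markers summed to 1.67 to 3.27 FPKM. The 4 leptomeningeal markers summed to 96.4 to 226 FPKM in pubertal and to 36.5 to 69.5 FPKM in prepubertal libraries, with no overlap. The third pubertal library held 314 FPKM of the 4 choroid plexus markers (3.92 to 56.4 FPKM in the others) and 13.5 FPKM of the 4 anterior pituitary markers (0 to 2.46 FPKM in the others). Oligodendrocyte markers ranged from 1096 to 4267 FPKM in pubertal and from 709 to 1849 FPKM in prepubertal libraries. The part of these differences in the ZNF values was not tested.

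All 203 members had a value above 0 in each of the 6 libraries, as had 219 of the 226 ZNF genes. Their levels were modest. The median member was at 7.96 FPKM, with quartiles of 4.99 and 12.8 FPKM, and the median of all genes over the floor was 14.9 FPKM. Only 6 members were above 50 FPKM, 69 lay between 10 and 50 FPKM, and 128 (63.1%) were below 10 FPKM. The 8 most abundant members held 21.9% of the summed FPKM of the family. Summed over the members, the level was 2472, 2303 and 2240 FPKM in the pubertal libraries and 2431, 2391 and 2332 FPKM in the prepubertal ones. These sums overlapped between the stages, at 2338 ± 120 FPKM and 2385 ± 49.7 FPKM (mean ± SD, n = 3 each).

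**Figure D1:**
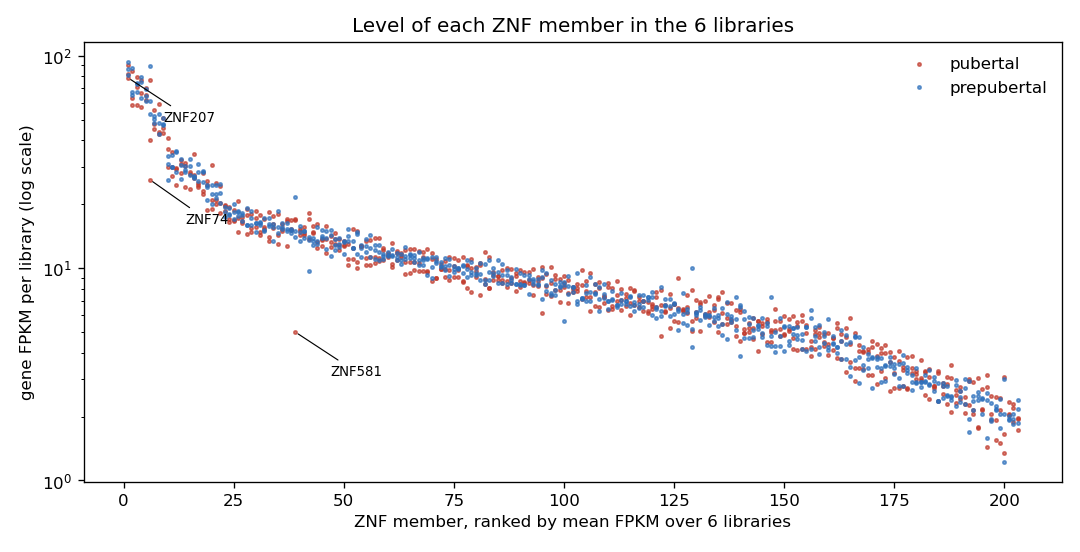
Level of each ZNF member in every library, in gene FPKM on a log axis, against its rank by mean level (1 is the most abundant); red points are pubertal and blue points prepubertal libraries. The points of both colours run through each other along the whole curve from 85.2 to 2.01 FPKM, and ZNF74 and ZNF581 spread most.

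The most abundant member was ZNF207 (BuGZ), which binds microtubules and carries the checkpoint protein BUB3 in spindle assembly. ZNF207 stood at 90.3, 78.6 and 81.9 FPKM in the pubertal libraries compared with 81.4, 92.9 and 86.0 FPKM in the prepubertal ones. The stages overlapped, and the difference between them was -0.05 on the log2(FPKM + 1) scale (SE 0.09, limma adjusted p = 0.975). With its most abundant transcript in place of the sum the difference was 0.14. ZNF593, the relative of a yeast factor needed for export of the large ribosomal subunit, followed with 84.4, 63.3 and 58.8 FPKM against 87.4, 65.3 and 67.3 FPKM. Within either stage its libraries differed by more than the stage means, 68.8 and 73.3 FPKM.

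ZNF483, the KRAB and SCAN protein of the menarche locus, came next. Its level was 78.9, 70.8 and 58.7 FPKM in pubertal and 74.4, 73.8 and 67.3 FPKM in prepubertal libraries. The pubertal goats enclosed the prepubertal ones, and the log2 difference was -0.06 (SE 0.12, limma adjusted p = 0.978). ZNF428 was measured at 66.4, 76.6 and 57.4 FPKM against 79.2, 62.9 and 75.2 FPKM. ZNF638, an RNA and DNA binding protein that recruits the HUSH silencing complex to unintegrated viral DNA, was at 70.7, 61.8 and 65.5 FPKM against 61.4, 69.5 and 64.6 FPKM. The stages overlapped for both genes, with log2 differences of -0.12 and 0.02. Without the third pubertal library the difference of ZNF428 was -0.02, and without the second pubertal or the second prepubertal library it was -0.22 in either case.

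ZNF74, a KRAB gene of the DiGeorge syndrome region in human, had the widest range of the abundant members. It was at 76.5, 39.9 and 26.0 FPKM in the pubertal libraries compared with 89.4, 61.3 and 52.8 FPKM in the prepubertal ones. The first library of each stage was the highest, and one pubertal goat lay above 2 of the 3 prepubertal goats. Its log2 difference of -0.61 was the most negative among all members, with an SE of 0.36 and a 95% interval from -1.43 to 0.21 (limma adjusted p = 0.962). That value rested on single goats, being -0.25 without the third pubertal library, -1.01 without the first (limma adjusted p = 0.291, the lowest of these fits) and -0.39 without the first prepubertal library. The transcript model behind it is only 261 nt long. ZNF24, needed for myelination by oligodendrocytes, was at 55.5, 45.2 and 47.4 FPKM against 48.3, 52.0 and 50.5 FPKM, and ZNF706 at 59.1, 42.9 and 43.8 FPKM against 48.3, 53.3 and 42.9 FPKM. Neither gene separated the stages, the log2 differences being -0.03 and 0.00.

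Across the family the stages were close. Of the 203 members, 0 passed an adjusted p of 0.05 in limma, the lowest adjusted p among them being 0.904, and 0 of all 16397 genes tested passed it (0%). At an unadjusted p under 0.05 in the same fit, 3 members passed (1.48%), of which ZNF579 and ZNF550 were higher and ZNF329 lower in the pubertal libraries. Among all genes over the floor the corresponding shares were 3.13% higher and 1.73% lower. Among all genes tested they were 3.51% higher and 1.65% lower. The members' share was below these backgrounds, a difference that was not tested. Without the third pubertal library 0 members passed an unadjusted p under 0.05 (3.53% of the genes over the floor), without the first 12 did (14.5%), and without the second 5 did (6.82%). The share of members in these fits was 0%, 5.91% and 2.46%.

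With the deposited scaling the members did not share a direction. The pubertal mean was below the prepubertal mean for 108 members (53.2%) and above it for 95, and among the other genes over the floor 53.9% were below. The median log2 difference of the members was -0.01, with quartiles of -0.06 and 0.05, and that of the other genes was also -0.01. The sign split moved with the scaling of the libraries. After quantile normalization 69.0% of the members were lower (56.0% of all genes over the floor), and after scaling to a common total over transcripts of at least 300 nt 34.5% were lower (40.3% of all genes over the floor). Counted library by library, the median deviation of the members from their own means was 0.01, -0.02 and 0.00 in pubertal and 0.00, 0.02 and -0.02 in prepubertal goats log2 units.

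The members' differences were also small in size. They ran from -0.61 to 0.37 on the log2 scale with an SD of 0.12, and those of the other genes from -7.71 to 4.46 with an SD of 0.23. For 142 members (70.0%) the difference was under 0.1 log2 units, as for 55.4% of the other genes, and only 7 members exceeded 0.25. The 95% interval of the difference lay within a 1.5-fold change in either direction for 192 members (94.6%) and for 85.7% of the other genes. Between the highest and the lowest of the 6 libraries, 172 members (84.7%) varied by less than 1.5-fold, and 5 (2.46%) by more than 2-fold, against 73.5% and 8.34% of the genes over the floor. These shares are descriptions of these libraries and were not tested. A log2(FPKM + 1) difference understates the change of low genes, and the median level was 7.96 FPKM in the members and 15.1 FPKM in the other genes.

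**Figure D2:**
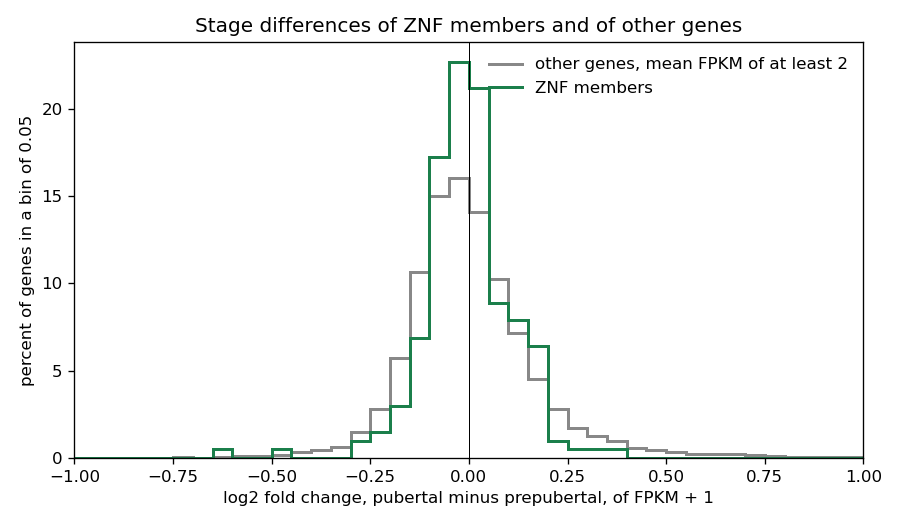
Distribution of the stage difference, pubertal minus prepubertal, in log2(FPKM + 1), for the 203 ZNF members (green) and the 12781 other genes with a mean of at least 2 FPKM (grey), as percent of genes in bins of 0.05. Both outlines peak just under 0, the ZNF outline is the narrower one, and 0 members and 96 other genes lie outside the range drawn.

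The share of lower genes was larger at higher levels, in the members and among all genes alike. Of the 67 least abundant members (under 6.01 FPKM) 43.3% were lower in the pubertal libraries, of the middle 68 (up to 10.9 FPKM) 52.9%, and of the 68 most abundant 63.2%. Among all genes in the same bands the shares were 37.2%, 41.0% and 63.9%.

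In 11 members (5.42%) every pubertal library lay on one side of every prepubertal library, 7 higher and 4 lower. The background among genes over the floor was 9.22% in all, with 5.09% higher and 4.13% lower. With 3 goats a stage an exact two-sided permutation test of a single gene cannot go below p = 0.1, and none of the 11 passed the adjusted limma test, so the values below are descriptions.

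ZNF329 was the clearest of the lower genes. It was at 10.3, 13.0 and 11.1 FPKM in pubertal libraries compared with 15.2, 13.4 and 14.2 FPKM in prepubertal ones. The gap was narrow, between 13.0 and 13.4 FPKM, and the log2 difference was -0.30 (SE 0.11, limma adjusted p = 0.904). ZNF331, imprinted in human, was at 25.3, 24.1 and 24.5 FPKM against 28.4, 30.7 and 25.7 FPKM, a log2 difference of -0.19 (SE 0.09, limma adjusted p = 0.962). The pubertal goats had an SD of 0.601 FPKM and the prepubertal goats, which were more spread, one of 2.502 FPKM.

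ZNF215, a further KRAB gene that is imprinted in human, was at 6.15, 6.28 and 6.90 FPKM against 7.30, 7.31 and 7.05 FPKM. Its log2 difference was -0.14 (SE 0.10, limma adjusted p = 0.962), and 0.01 when its most abundant transcript was used in place of the sum. ZNF569, a KRAB gene, was at 13.7, 12.7 and 13.6 FPKM against 13.9, 14.2 and 15.1 FPKM, a log2 difference of -0.10 (SE 0.09, limma adjusted p = 0.962). The highest pubertal and the lowest prepubertal goat nearly met.

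Among the genes that were higher in all pubertal libraries, ZNF550 had the largest difference. It was at 5.65, 5.10 and 6.40 FPKM in pubertal goats compared with 4.997, 4.04 and 4.30 FPKM in prepubertal ones. The log2 difference was 0.30 (SE 0.13, limma adjusted p = 0.958), and the nearest goats of the stages were 5.10 and 4.997 FPKM. ZNF202, a SCAN and KRAB repressor of lipid metabolism genes, was at 3.38, 3.21 and 3.84 FPKM against 3.14, 2.91 and 2.66 FPKM, a log2 difference of 0.20 (SE 0.12, limma adjusted p = 0.962).

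ZNF692, which binds the AICAR response element and represses gluconeogenic genes, was at 14.8, 15.8 and 14.6 FPKM against 13.8, 13.4 and 12.8 FPKM. The log2 difference was 0.16 (SE 0.09, limma adjusted p = 0.962), and the goats of either stage were close together. ZNF22 was at 7.69, 6.58 and 7.33 FPKM against 5.80, 6.44 and 6.52 FPKM, and ZNF614 at 8.65, 6.97 and 7.42 FPKM against 6.68, 6.55 and 6.71 FPKM. In both genes the lowest pubertal goat was just above the highest prepubertal one, and each had a log2 difference of 0.18. Without the first pubertal goat, the highest in both, the difference was 0.10 in ZNF614 and 0.13 in ZNF22.

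The remaining genes of this kind were low. ZNF582 was at 2.96, 3.69 and 3.03 FPKM against 2.76, 2.90 and 2.89 FPKM, a log2 difference of 0.13 (SE 0.12, limma adjusted p = 0.962). ZNF157, named after its values were seen, was at 2.34, 2.02 and 2.06 FPKM against 1.93, 1.95 and 2.01 FPKM, a log2 difference of 0.08 (SE 0.11, limma adjusted p = 0.969). A single pubertal goat, the second in ZNF582 and the first in ZNF157, lay above all other goats. Without that goat the log2 difference was 0.05 in ZNF582 and 0.04 in ZNF157.

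ZNF579, also named after its values were seen, had the largest positive difference of all members although its stages overlapped. It was at 13.7, 18.2 and 17.0 FPKM in pubertal libraries compared with 14.0, 9.72 and 13.6 FPKM in prepubertal ones. The first pubertal goat lay inside the prepubertal range, and the log2 difference was 0.37 (SE 0.16, limma adjusted p = 0.962). Without the second prepubertal goat, the lowest, the difference was 0.22. Its transcript model is short, at 549 nt.

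**Figure D3:**
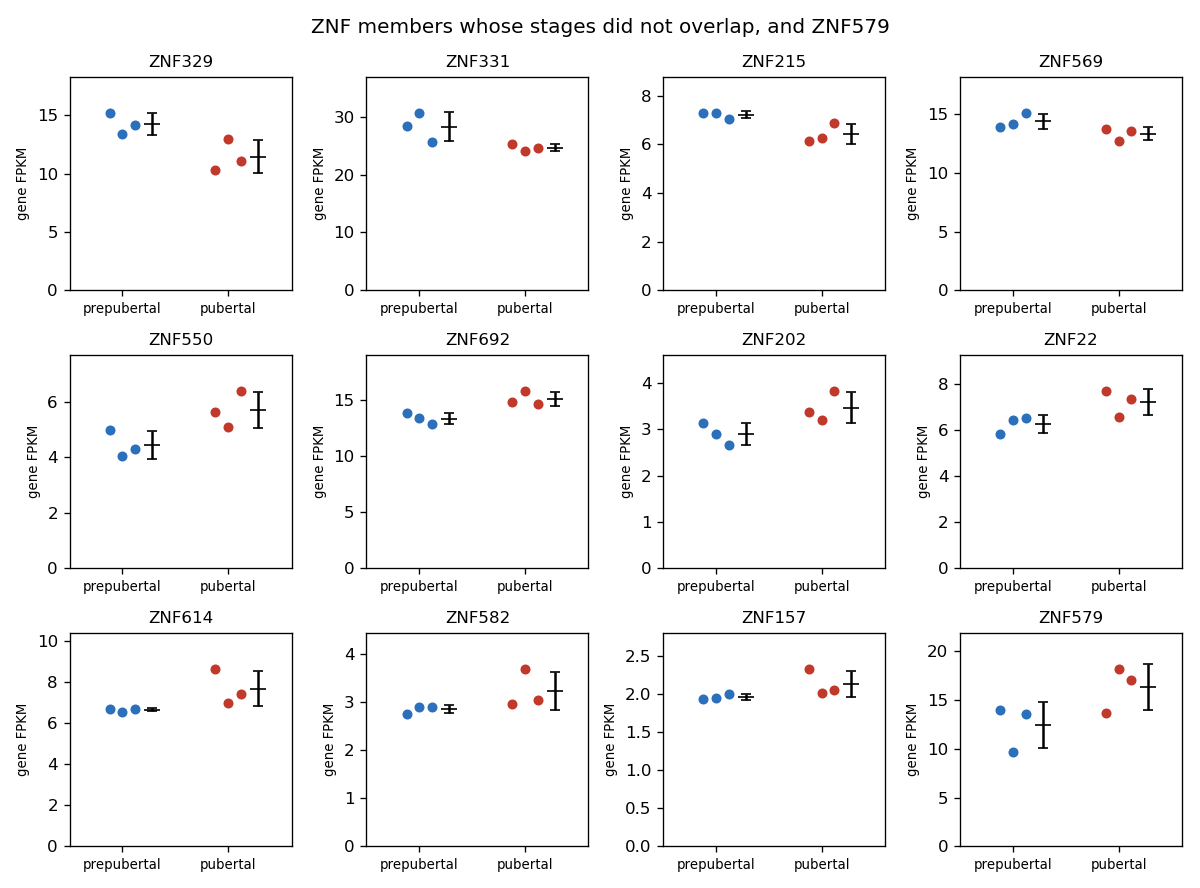
Gene FPKM per goat of the 11 ZNF members whose stages did not overlap and of ZNF579, each panel with an axis from 0; blue points are prepubertal, red points pubertal goats, and the bars give the mean ± SD (n = 3). ZNF329, ZNF331, ZNF215 and ZNF569 sit lower and the next 7 genes higher in the pubertal goats, with narrow gaps, whereas 1 pubertal goat of ZNF579 falls among the prepubertal ones.

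ZNF175, a KRAB gene that the study considered as a target of non-coding transcripts, was at 8.43, 8.09 and 7.78 FPKM in pubertal libraries compared with 7.03, 9.48 and 6.76 FPKM in prepubertal ones. The prepubertal goats enclosed the pubertal ones, and the log2 difference was 0.07 (SE 0.14, 95% interval -0.25 to 0.38, limma adjusted p = 0.978). ZNF583 was the steadiest member, at 11.6, 11.3 and 11.7 FPKM against 11.4, 11.9 and 11.5 FPKM, with an SD within stages of 0.03 log2 units. ZNF581 was the most variable one. It was at 16.9, 17.0 and 4.99 FPKM against 14.9, 14.0 and 21.5 FPKM, an SD within stages of 0.68 log2 units, and the third pubertal library alone was far below the rest. Without that library its SD was 0.26 log2 units, the 13th largest among the members, and ZNF74 was first with 0.49.

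Near the floor, the lowest members were ZNF414, with a mean of 2.04 FPKM, and ZNF438, with 2.01 FPKM, and the highest genes left out were ZNF366 at 1.98 FPKM and ZNF526 at 1.66 FPKM. ZNF366, known as a marker of dendritic cells, was at 2.28, 2.09 and 2.35 FPKM in pubertal libraries compared with 1.51, 1.84 and 1.82 FPKM in prepubertal ones. Of the 23 genes below the floor 16 were abundant enough to be tested, and 0 of them passed an adjusted p of 0.05. ZNF562 was the 1 gene among these 16 with an unadjusted p under 0.05 (6.25%, beside 5.16% of all genes tested) and is named for that reason. It was at 1.46, 1.36 and 1.33 FPKM against 0.982, 0.915 and 0.601 FPKM, a log2 difference of 0.39 (SE 0.12, limma adjusted p = 0.808).

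Members with a known role were looked at in groups, drawn up when the levels were already known. In none of the 5 groups did a member pass an unadjusted p under 0.05, which 4.85% of all genes over the floor passed. With groups this small, nothing is read from that. Of 9 members that act on RNA, ribosomes or the spindle, 6 were lower and 3 higher, with a median log2 difference of -0.02. ZNF622, which takes part in maturation of the large ribosomal subunit, was at 13.3, 14.2 and 12.6 FPKM against 14.3, 11.4 and 15.0 FPKM. ZNF598, the ubiquitin ligase that senses collided ribosomes, was at 3.26, 3.99 and 4.21 FPKM against 3.75, 2.89 and 3.37 FPKM. Both overlapped, at log2 differences of -0.01 and 0.15. ZNF326, which couples splicing to elongation by RNA polymerase II, was at 30.4, 18.9 and 20.8 FPKM against 20.0, 22.3 and 24.5 FPKM, with the first pubertal goat alone above the others. ZNF106 had a like pattern, at 34.2, 27.4 and 26.6 FPKM against 26.4, 27.0 and 26.8 FPKM.

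The 8 partners of chromatin complexes were the most uniform group, with log2 differences between -0.04 and 0.07 and a median of 0.02 (3 lower, 5 higher). ZNF644, which brings the H3K9 methyltransferases G9a and GLP to DNA, was at 35.1, 27.2 and 29.8 FPKM against 30.0, 34.0 and 29.9 FPKM. ZNF410, an activator dedicated to the remodeller gene CHD4, was at 19.6, 18.5 and 19.7 FPKM against 19.4, 17.4 and 18.3 FPKM. The ranges of the stages overlapped for either gene, and CHD4 itself stood at 46.8, 42.7 and 43.3 FPKM against 45.1, 41.1 and 41.8 FPKM. ZNF532 and ZNF687, which form a complex with ZMYND8, had log2 differences of 0.02 and 0.07.

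Of 13 KRAB genes in these groups, 8 were lower and 5 higher, with a median of -0.06 and a range from -0.61 (ZNF74) to 0.20 (ZNF202). Other members with a KRAB domain were not sought, so this split holds for the listed genes alone. In 4 of the 13 the stages did not overlap, namely ZNF331, ZNF215 and ZNF569, which were lower, and ZNF202, which was higher. Among all 203 members the split went the other way, with 7 higher and 4 lower without overlap. The 4 genes are 30.8% of a group drawn up when the values were known, beside 5.09% higher and 4.13% lower among all genes over the floor. Nothing is read from that share. ZNF10 (KOX1), from which the KRAB domain used in many repressor fusions was taken, was at 8.02, 6.63 and 6.40 FPKM against 7.06, 7.81 and 7.18 FPKM. ZNF274, which guides SETDB1 to zinc finger gene clusters, was at 4.26, 4.54 and 3.14 FPKM against 3.78, 2.72 and 3.82 FPKM. ZNF445, a keeper of genomic imprints, was at 11.7, 11.3 and 11.5 FPKM against 10.4, 11.6 and 10.9 FPKM. The ranges of the stages overlapped in each of these genes, at log2 differences of -0.06, 0.16 and 0.06.

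The 8 members with a part in neural development had a median log2 difference of 0.09 (5 higher, 3 lower). ZNF536, a repressor of neuronal differentiation, was at 5.17, 5.06 and 5.75 FPKM against 4.52, 4.34 and 5.31 FPKM, and ZNF423, which takes part in cerebellar development, at 6.12, 6.54 and 7.48 FPKM against 6.19, 5.38 and 6.39 FPKM. One prepubertal goat lay inside the pubertal range in the first gene, and 2 did in the second. ZNF746 (PARIS), a repressor of PGC-1α, was at 4.99, 7.31 and 7.11 FPKM against 5.84, 6.01 and 5.32 FPKM, and ZNF711, an X-linked gene of intellectual disability in human, at 24.3, 18.2 and 20.3 FPKM against 22.5, 24.8 and 20.3 FPKM. Of the pair of activators of small nuclear RNA promoters, ZNF143 had a log2 difference of 0.00 and ZNF76 one of 0.15, with overlap in both.

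Sums over transcripts could hide changes in transcript use, so the 348 transcripts of the members were followed as well, in a fit added after the gene values were seen. Of these, 331 were tested, 0 passed an adjusted p of 0.05 (lowest 0.808), and 0% of all transcripts tested did. At an unadjusted p under 0.05, 3 were higher (0.906%) and 3 lower (0.906%), against 2.87% and 2% of all transcripts tested. A single transcript was listed for 146 members. Of the 57 members with several, 34 had the same most abundant transcript in all 6 libraries. The share of the most abundant transcript separated the stages in 2 of the 57, with 44.1 ± 5.81% in pubertal and 37.3 ± 2.66% in prepubertal libraries for ZNF181 and 21.9 ± 12.1% and 43.8 ± 13.8% for ZNF565 (mean ± SD, n = 3 each). Among the 3504 genes over the floor with several transcripts, this share was higher without overlap in 3.97% and lower in 5.05%.

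ZNF207 held 2 of the transcripts with an unadjusted p under 0.05, with differences of opposite sign. XM_005693227.2 was at 5.12, 4.12 and 3.15 FPKM in pubertal libraries compared with 0.0899, 0.236 and 1.82 FPKM in prepubertal ones, a log2 difference of 1.70 (SE 0.37, limma adjusted p = 0.808). XM_005693225.2 was at 23.8, 23.5 and 28.7 FPKM against 31.2, 34.9 and 32.0 FPKM, a log2 difference of -0.36 (SE 0.10, limma adjusted p = 0.944). For either transcript the stages did not overlap. The former made up 4.92 ± 0.956% of ZNF207 in pubertal and 0.829 ± 1.12% in prepubertal libraries (mean ± SD, n = 3 each).

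ZNF565, a gene with 8 listed transcripts, also had differences of opposite sign, in XM_013971182.1 and XM_005692269.2. The former was at 2.22, 2.12 and 2.07 FPKM in pubertal goats compared with 0.734, 0.439 and 1.41 FPKM in prepubertal ones, a log2 difference of 0.79 (SE 0.21, limma adjusted p = 0.910). The latter was at 3.04, 2.09 and 0.881 FPKM against 3.84, 6.24 and 3.02 FPKM, a log2 difference of -0.86 (SE 0.33, limma adjusted p = 0.972). The first pubertal goat slightly exceeded the lowest prepubertal goat in the latter. ZNF410 had a minor transcript, XM_005686063.2, at 1.52, 1.34 and 1.51 FPKM in pubertal libraries compared with 0.896 FPKM in 1 prepubertal library, and it was listed at 0 in the other two. FPKM of near-identical transcripts are estimates that share reads, and values of single transcripts are less certain than the sums.

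**Figure D4:**
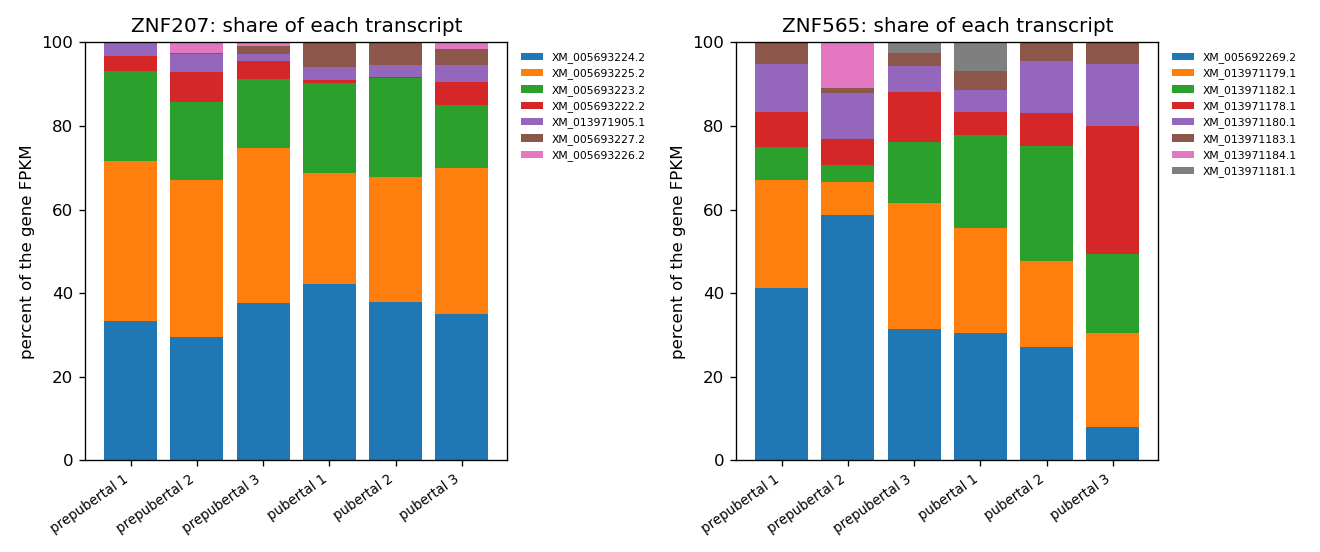
Share of each listed transcript in the FPKM of ZNF207 (left) and ZNF565 (right) per library, as stacked percentages from 0 to 100, prepubertal libraries first. The red, purple, brown and pink segments of ZNF207 are each at most 6.97% in every library, and the lowest segment of ZNF565 ranges from 8.03% to 58.7% between goats.

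In ZNF638 the most abundant transcript, XM_013967510.1, held 43.5 ± 1.43% of the gene in pubertal and 45.4 ± 1.47% in prepubertal libraries, with overlap, and it was not the first in every library. The next 2 separated the stages. XM_005686375.2 held 41.3, 44.0 and 39.6% in pubertal libraries against 37.0, 38.3 and 37.2%, and XM_005686376.2 held 13.9, 13.3 and 14.6% against 16.0, 16.2 and 15.5%. Neither passed an unadjusted p under 0.05 in the fit of the transcripts. The shares of a gene add up to the whole, so that these shifts are not independent. For transcripts below the most abundant one, no matching count over all genes was made. In ZNF24 the most abundant transcript held 80.4 ± 0.745% and 81.4 ± 0.558%. In ZNF644 it held 65.5 ± 6.29% and 63.9 ± 2.21% (mean ± SD, n = 3 each).

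ZNF581 and ZNF74, which spread most between goats, had short transcript models. For 5 members, ZNF593, ZNF74, ZNF581, ZNF114 and ZNF12, the most abundant transcript was under 500 nt. Their median SD within stages was 0.31 log2 units, against 0.13 in the 198 longer members. In ZNF114 the short transcript held only 37.7% of the gene in pubertal and 34.6% in prepubertal libraries, and it was not the first in every library. The other transcripts of ZNF114 were 2089 to 2204 nt long. The 501 genes over the floor with models this short had a median SD of 0.30 and the longer ones 0.14. Across the 203 members length and SD had a Spearman correlation of -0.41, and across the 12984 genes over the floor one of -0.32. These are correlations across genes, which are not independent replicates. The median stage difference was slightly higher in longer genes, which was not tested. Among members it was -0.04 under 1500 nt and 0.00 at 4500 nt or more. The same bins of all genes over the floor had medians of -0.04 and 0.02. Of the members in these bins 54.2% and 46.5% were lower in pubertal libraries, with 55.2% and 55.1% in the bins between. Of all genes over the floor 60.9% of the shortest and 43.7% of the longest were lower.

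**Figure D5:**
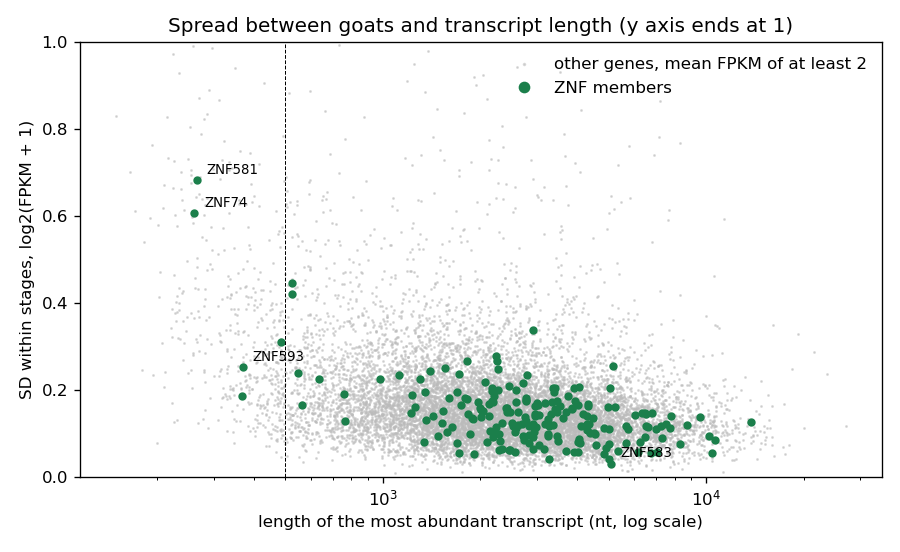
SD of log2(FPKM + 1) within stages against the length of the most abundant transcript (nt, log scale), with ZNF members in green and other genes over 2 FPKM in grey; the dashed line marks 500 nt, and 77 other genes above an SD of 1 are not drawn. ZNF581 and ZNF74, left of the line, have the largest SDs of the family (0.68 and 0.61), whereas ZNF583 has the smallest (0.03).

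Many ZNF genes sit in clusters that arose by duplication. In the order of the goat RefSeq annotation (ARS1.2), 70 members (34.5%) had another member as direct neighbour, in 27 runs. The longest run comprised ZNF746, ZNF777, ZNF783, ZNF212, ZNF282, ZNF398 and ZNF786. In this run 3 genes were lower and 4 higher, with log2 differences from -0.10 to 0.15. The next held ZNF565, ZNF146, ZNF567, ZNF461, ZNF382 and ZNF260, of which 2 were lower. Over the 43 adjacent pairs the sign of the difference was shared in 21 (48.8%), as in 49.96% of all pairs of members. Over the 6 libraries the median Pearson correlation was 0.34 in adjacent member pairs and 0.01 in all 20503 member pairs, and 0.21 in the 8640 adjacent pairs of other genes. Each of these correlations rests on the same 6 libraries. Paralogous neighbours can share reads, and the part of this in the values was not tested.

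The co-repressors through which KRAB proteins act were followed as a list. Of 31 listed genes 28 had a row, each over the floor, with 18 lower and 10 higher in pubertal libraries and a median log2 difference of -0.02. None passed an unadjusted p under 0.05 (4.85% of all genes over the floor did). The 95% interval lay within a 1.5-fold change for 28 of 28, and for 85.8% of all genes over the floor. TRIM28 was at 29.4, 37.9 and 35.3 FPKM against 34.3, 32.8 and 34.2 FPKM, and SETDB1 at 16.8, 14.7 and 16.5 FPKM against 15.7, 15.8 and 17.4 FPKM. Their log2 differences were 0.01 and -0.02. HDAC1 and GATAD2B, subunits of NuRD named after their values were seen, were higher in every pubertal than in every prepubertal library, each at a log2 difference of 0.18 (limma adjusted p = 0.962 for either). They were the only 2 of the 28 without overlap (7.14%). Among all genes over the floor 5.09% were higher and 4.13% lower without overlap, and nothing is read from these 2 genes.

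Zinc finger genes with other names were counted in the same fit. Over 78 C2H2 genes of the ZBTB, ZFP, ZSCAN, ZKSCAN, KLF, SP, ZIC, GLI and IKZF families over the floor, 34 (43.6%) were lower, the median log2 difference was 0.02, and 0 passed an adjusted p of 0.05. At an unadjusted p under 0.05, 2 were higher and 1 lower, or 3.85% in all, beside 3.13% higher and 1.73% lower among all genes over the floor. The 15 ZC3H genes, whose fingers bind RNA, and the 66 RNF genes, whose RING fingers mark ubiquitin ligases, had medians of -0.06 and -0.02. At that threshold 1 ZC3H gene (6.67% of them) was higher, and 1 RNF gene was higher and 1 lower (3.03% in all).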

How the data were processed

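Hypothalamic RNA of 3 pubertal and 3 prepubertal goats was sequenced, 1 library per goat, and libraries were grouped by the labelled stage. The authors aligned reads to the goat genome and estimated transcript levels with Cufflinks 2.1.1, and the deposited values are FPKM per transcript and library, normalized by the authors for length and mapped reads. The genome build is not given in the sources used here. Scaling was the authors' and could shift all genes of a library together, so other scalings were tried. Deposited transcript lengths and gene identifiers were read from the comparison table. Its group FPKM, fold changes, p-values and q-values were made with Cuffdiff 2.1.1 and hold the authors' own comparison, and they were not used. Per-sample columns left unused numbered 0.

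FPKM were summed per gene, and 19083 of 20225 genes (94.4%) were matched by gene ID to a symbol in the RefSeq names of ARS1.2. Of 243 ZNF symbols in those names 17 had no row. ZNF444 and ZNF573 were not analysed here. Genes with a mean of at least 0.1 FPKM were fitted in limma 3.58.1 (R 4.3.3, lmFit and eBayes with trend, two-sided) on log2(FPKM + 1), with Benjamini-Hochberg adjustment over all genes, and transcripts likewise. Without read counts no counting error can be given. The script was tested on simulated data.

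The members, gene lists and tests were chosen with earlier results of these data known. Genes were named by rule: the 8 most abundant members, up to 6 per direction whose stages did not overlap, ZNF175, those beside the floor, the most and least variable, and the 3 most abundant with 3 or more transcripts; others are named by list or after their values were seen. No protein sequences were used here, so no classes by protein domain were made. Alternatives changed the pseudocount, the minimum, scaling, trend, replicate block, transcript choice, member floor and the libraries included.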

Additional observations from a re-analysis of the deposited data

How the results depend on the processing

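Across all 18 alternatives 0 members passed an adjusted p of 0.05 in limma, while the whole table gave 0 to 4 such genes. The number at an unadjusted p under 0.05 was 3 as reported (1.48%, beside 4.85% of the genes over the floor). It was 1 with no minimum level (0.493%, beside 4.46%). When 1 library was left out it ranged from 0 to 12 (0% to 5.91%), beside 2.81% to 14.5% of the genes over the floor. The median log2 difference, -0.01 as reported, was -0.045 after quantile normalization, 0.036 after scaling to a common total over transcripts of at least 300 nt, and -0.027 to 0.010 when 1 library was left out. The share of members lower in pubertal libraries, 53.2% as reported, was 69.0% and 34.5% under those scalings and 47.8% to 60.6% when 1 library was left out, highest without the third prepubertal library. ZNF215 changed sign with its most abundant transcript (0.014 against -0.14), and so did ZNF207 (0.142 against -0.053). After quantile normalization ZNF207 was at 0.004. Of 388 checks of single genes, 384 kept their direction or moved by less than the spread between goats. Another 3 were classed as moved by more and 1 as reversed. The sign change of ZNF207 with its most abundant transcript was counted among the 3. The cause of these shifts was not tested. The 10 genes named because their stages did not overlap had limma adjusted p values of 0.398 or more under all alternatives. With the replicate number as a block, 1 member passed at an unadjusted p under 0.05 (0.493%, beside 4.84% of the genes over the floor). The same-numbered goats did not deviate together (correlations of -0.04, -0.11 and 0.10). The best match of a goat was not always its own number. Deviations were taken from stage means of 3 goats, so this check cannot settle whether the numbers pair the samples. The fit without members under 500 nt was chosen after seeing the data. It left 3 members at an unadjusted p under 0.05 (1.52%, beside 4.85% of the genes over the floor). Without read counts, what depth limits is unknown, and 3 goats per stage limit the precision.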
